A study of Mus musculus with 6 samples.

Results

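Cells without transcripts of *Tcf7* that carried those of *Pdcd1*, *Havcr2* and *Entpd1* were taken from the CD8 TILs of B16-OVA tumors, a proposed group of terminally exhausted cells. A cell belonged to it when it held 0 UMIs of *Tcf7* (unique molecular identifiers, each standing for 1 RNA molecule), at least 2 of *Pdcd1*, at least 2 of *Havcr2* and at least 1 of *Entpd1*. The cells were drawn from base cells, which are tumor barcodes that had between 200 and 6000 genes, no more than 3% of UMIs from mitochondrial genes, and *Cd2*, *Cd8a* and *Cd8b1* each with 1 UMI or more. In all, 5246 of 15744 tumor base cells met the rule, 2331 of 7106 in control and 2915 of 8638 in CD8-IFNγRKO TILs, out of 29156 base cells in both tissues. The cells were thus chosen by measured UMIs of these 7 genes, so that the levels of these genes describe the choice and are not a finding. For short, the chosen cells are called rule cells, and the remaining tumor base cells the other cells.

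Both genotypes carried CD8-Cre and the Rosa26Tomato reporter, which marks cells in which the Cre has acted, and the CD8-IFNγRKO mice carried IFNgR1flox/flox as well. Mice were engrafted with B16-OVA, a mouse melanoma line that expresses ovalbumin, and the libraries are labelled day 12. Cells sorted for CD45, CD3, CD8 and Tomato from 3 pooled mice per genotype made up 1 library of 5′ transcript ends per tissue, tumor or draining lymph node (LN), with a T cell receptor (TCR) library from each tumor pool. Age is not given in the labels, and cells cannot be assigned to single mice. With 1 sample per genotype, cells were not counted as replicates and no test between genotypes was possible. Groups of cells from the same library were compared by their ratio within each tumor library, without a test. The intervals given are 95% intervals that cover counting error only.

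In chronically stimulated CD8 T cells, *Tcf7* encodes the transcription factor TCF1 of stem-like cells that can renew themselves, and cells that have lost it carry more inhibitory receptors. *Pdcd1* encodes PD-1, *Havcr2* encodes TIM-3 and *Entpd1* encodes CD39, an enzyme that breaks down extracellular ATP, and the combination of all 3 without TCF1 is widely used to mark terminal exhaustion. Cells of that state are known to keep granzymes and perforin while their renewal and cytokine output are limited. IFNγ signals through a receptor whose ligand-binding chain is encoded by *Ifngr1*, the gene floxed in the CD8-IFNγRKO mice.

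The targeted gene was read out first. *Ifngr1* (ENSMUSG00000020009, GRCm38 chr10:19591949-19610229) stood at 644 CPM in control and 210.5 CPM in CD8-IFNγRKO rule cells, where the CPM scale gives a gene's UMIs after scaling every group to the same total. In the other cells it stood at 799 and 266 CPM. The level was thus lower in CD8-IFNγRKO in both groups, with a log2 ratio, 1 CPM added to both values, of -1.61 (-1.64 to -1.57) in rule cells and -1.59 in the others. Reads from the transcript's 5′ end are counted whether or not the floxed part is deleted, so that the rest does not count cells with an intact gene. *Ifngr2*, the other chain, was near 0 in rule cells, at 0.416 and 0.0833 CPM.

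The rule found no cell in LN. There, 0 of 6658 control and 0 of 6754 CD8-IFNγRKO base cells met it, which allows shares of up to 0.0451% and 0.0444%, taking 3 cells as the limit of a count of 0. Median depth was 4052.5 and 3865.5 UMIs per LN cell. *Tcf7* stood at 578 and 552 CPM in LN, whereas *Pdcd1* reached 0.899 and 1.04 CPM and *Havcr2* 0.0999 and 0.104 CPM. The tumor libraries shared 169 barcodes, 1.49% of the smaller library, of which 72 were base cells in both, and the pairs with an LN library shared between 175 and 249. Doublets were kept and no doublet caller was run.

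The chosen levels themselves separated the groups unevenly. *Havcr2* (GRCm38 chr11:46454931-46481255) measured 383 CPM against 219 CPM in control and 283 CPM against 135 CPM in CD8-IFNγRKO TILs, rule cells before the others. *Entpd1* (chr19:40612366-40741602) measured 168 CPM against 69.1 CPM in control and 149 CPM against 70.9 CPM in CD8-IFNγRKO TILs. *Pdcd1* (chr1:94038305-94052553) differed least, with 840.1 CPM against 793 CPM in control and 644 CPM against 593 CPM in CD8-IFNγRKO TILs. Medians per rule cell were 10 and 9 UMIs of *Pdcd1*, 4 and 4 of *Havcr2* and 2 and 2 of *Entpd1*, control before CD8-IFNγRKO. *Tcf7* was by construction absent from rule cells and stood at 29.7 and 44.1 CPM in the others, and 191 control and 379 CD8-IFNγRKO base cells had *Tcf7* and *Pdcd1* transcripts together.

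Each criterion was met by a different part of the base cells. No *Tcf7* UMI was found in 94.8% of control and 90.3% of CD8-IFNγRKO base cells, and 78.7% and 79.1% had at least 2 of *Pdcd1*. *Havcr2* and *Entpd1* were the narrower criteria, with 51.4% and 48.1% for the former and 50.5% and 55.9% for the latter. Cells that missed the rule by a single UMI of 1 gene numbered 1585 and 1766, and 1210 and 1457 met it with a gene at its lowest allowed count. In these neighbours *Lag3*, an inhibitory receptor outside the rule, stood at 937 CPM just inside and 939 CPM just outside in control, and at 528 and 516 CPM in CD8-IFNγRKO. *Gzmb*, encoding granzyme B, stood at 3595 inside and 3277 CPM outside in control, and at 5108 and 4516 CPM in CD8-IFNγRKO.

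Rule cells were deeply sequenced cells. Their median was 11355 UMIs (quartiles 7474 and 17292.5) in control and 15049 UMIs (10906.5 and 20514.5) in CD8-IFNγRKO, against 4849 and 6613 UMIs in the other cells, 2.34 and 2.28 times as many. They held 3189 and 3765 genes at the median, against 1880 and 2319. The rule cells supplied 31220353 and 48000624 UMIs, 52.5% and 51.1% of those of all tumor base cells. Mitochondrial shares of the pooled UMIs were alike, with 0.671% against 0.675% in control and 0.751% against 0.779% in CD8-IFNγRKO. The rule counts UMIs, so a cell with more UMIs passes it more easily, and a larger RNA content and a deeper sampling of the same content cannot be told apart here.

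The share of rule cells followed depth in both libraries. In control it was 0.619% below 2000 UMIs, 16.5% from 4000 to 6000, 45.6% from 8000 to 10000 and 82.1% at 20000 UMIs or more. In CD8-IFNγRKO the same classes gave 0 of 667 cells, 10.0%, 29.8% and 74.5%, and 3 cells, the limit that the count of 0 allows, would be 0.450%. Control lay above CD8-IFNγRKO in each of 8 depth classes, although the shares over all base cells, 32.8% (31.7 to 33.9) and 33.7% (32.7 to 34.8), were nearly the same. With control cells weighted to the depths of the CD8-IFNγRKO cells, the control share was 43.0%. After every cell was thinned to 6000 UMIs, which left out 3351 control and 2715 CD8-IFNγRKO cells, 972 of 3755 (25.9%, 24.5 to 27.3) control and 927 of 5923 (15.7%, 14.7 to 16.6) CD8-IFNγRKO cells met the rule. At 3000 UMIs the shares were 5.83% and 2.52%. The order of the genotypes thus depended on depth, with near equality in the cells as sequenced and a higher control share at equal depth. The part of sampling depth and of true RNA content in this was not tested.

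**Figure D1:**
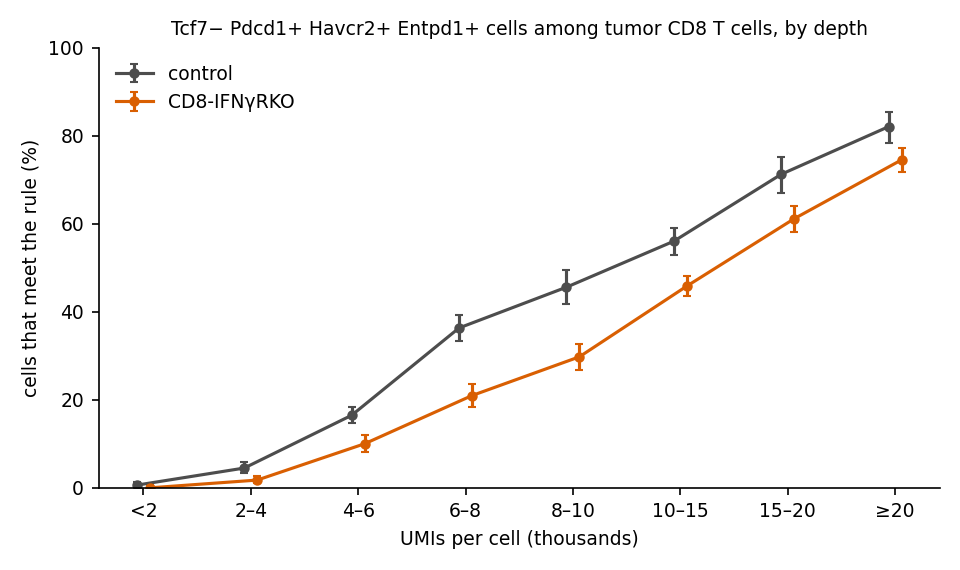
Share of tumor base cells that met the rule (y axis, percent) by UMIs per cell (x axis, in units of 1000) in control (grey) and CD8-IFNγRKO (orange), points with exact 95% binomial intervals. The control share went from 0.619% to 82.1% and the CD8-IFNγRKO share from 0 to 74.5% with depth, with control above in every class.

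Exhaustion markers that the rule did not use were next compared, as a check of the name. *Lag3* measured 906 CPM against 876 CPM in control and 515 CPM against 498 CPM in CD8-IFNγRKO TILs. *Tigit*, another inhibitory receptor, measured 499.6 CPM against 509 CPM in control and 304 CPM against 328 CPM in CD8-IFNγRKO TILs. *Ctla4* measured 577 CPM against 616 CPM in control and 464 CPM against 436 CPM in CD8-IFNγRKO TILs. None of these receptors passed the 1.5-fold limit, with log2 ratios of rule over other cells between -0.11 (*Tigit*, CD8-IFNγRKO) and 0.09 (*Ctla4*, CD8-IFNγRKO). At equal depth, since rule cells were deeper, *Lag3* had 0.25 and 0.31, *Tigit* 0.20 and 0.14 and *Ctla4* 0.13 and 0.22, again within the limit. *Tox*, which encodes a transcription factor of exhausted cells, measured 109 CPM against 118 CPM in control and 102 CPM against 115 CPM in CD8-IFNγRKO TILs, and *Cd38*, an ectoenzyme of late exhaustion, 54.9 CPM against 54.5 CPM in control and 33.1 CPM against 37.0 CPM in CD8-IFNγRKO TILs. The chemokine receptor gene *Cxcr6* measured 791 CPM against 786 CPM in control and 502 CPM against 494 CPM in CD8-IFNγRKO TILs. In the *Tcf7*+ *Pdcd1*+ cells *Lag3* stood at 604 and 422 CPM, *Cxcr6* at 496 and 349.6 CPM and *Tox* at 103 and 118 CPM, with depth not matched. Of these only *Cxcr6* in control was more than 1.5-fold below rule cells. At equal depth *Tox* had, in rule over other cells, ratios of -0.15 and -0.03. Thinned to 3000 UMIs per cell, the study's own exhaustion list without the genes of the rule had a median of 54 UMIs in rule cells against 47 in the others in control, and 57 against 48 in CD8-IFNγRKO, and this list holds *Gzmb*, *Ccl3* and *Tnfrsf9*. *Lag3*, *Tigit*, *Ctla4*, *Tox*, *Cd38* and *Cxcr6* thus stayed within 1.5-fold of the other TILs, most of which, 4403 and 4885 cells, also lacked *Tcf7*, and the cells are called by their rule.

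Since the UMIs that chose a cell also count in its level, the UMIs of each cell were split at random, 1 part choosing the cells and the held-out part measuring them. The choice then took 1056 control and 1236 CD8-IFNγRKO cells. In held-out UMIs, *Havcr2* remained higher in chosen cells, with log2 ratios of 0.39 and 0.52, and *Entpd1* with 0.30 and 0.32. *Pdcd1* had ratios of -0.05 (-0.09 to -0.01) and 0.06 (0.02 to 0.10), so that its level was close to that of the cells not chosen. *Lag3* had -0.01 and 0.02 and *Tox* -0.08 and -0.17. *Gzmb* had 0.39 and 0.61 and *Gzmc*, which encodes granzyme C, 0.79 and 1.06, while *Tcf7*, which the choice required to be absent, had -2.98 and -3.84. Depth was not matched in this split, and at equal depth without the split *Gzmc* had 0.50 and 0.41. This split was chosen after seeing the data.

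**Figure D2:**
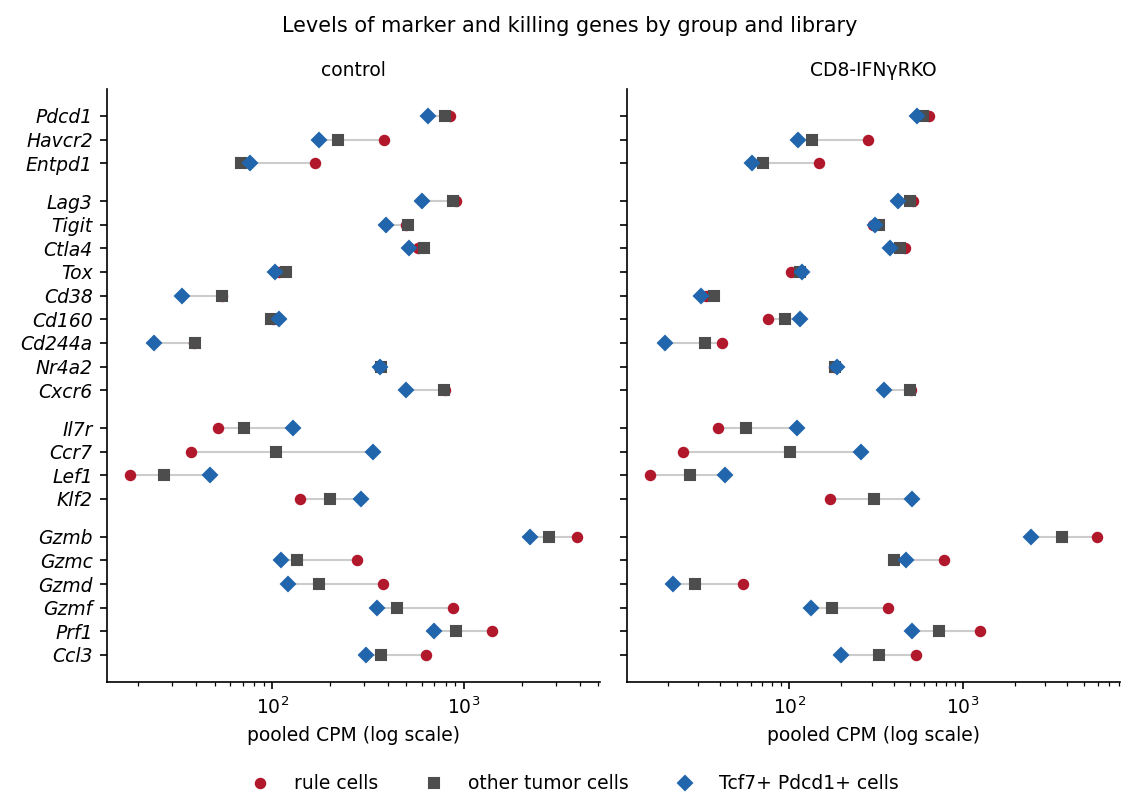
Pooled level (x axis, CPM, log scale) of 22 genes in rule cells (red circles), the other tumor cells (grey squares) and *Tcf7*+ *Pdcd1*+ cells (blue diamonds, also part of the other cells), control left and CD8-IFNγRKO right. Rule and other cells nearly coincide for *Lag3*, *Tigit* and *Cxcr6* and lie apart for *Gzmb*, *Prf1* and *Ccr7*.

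Across all genes, the rule cells were then set against the other cells in each library. Genes with at least 50 CPM in either group of each library and 100 UMIs were compared, 2693 in all, and a gene was counted when its ratio passed 1.5-fold (log2 0.58) the same way in both libraries. Of these, 12 genes (0.446%) were higher and 9 (0.334%) lower in rule cells, while the median log2 ratio over all genes was 0.02 in both libraries, with interquartile ranges of 0.17 and 0.16. With the other cells weighted to the depths of the rule cells, 4 of 2646 genes (0.151%) were higher and 3 (0.113%) lower, and 3 of the 12 and 3 of the 9 remained. Values below give control before CD8-IFNγRKO and rule cells before the others, and ratios at equal depth are the depth-weighted ones.

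Killing genes led the higher genes. The granzyme cluster on chromosome 14 encodes serine proteases that perforin delivers into target cells, and *Gzmc*, *Gzmd*, *Gzme* and *Gzmf* all passed. *Gzmf* (chr14:56205263-56211407) measured 875 CPM against 448 CPM in control and 369 CPM against 178 CPM in CD8-IFNγRKO TILs, log2 ratios of 0.96 (0.93 to 0.99) and 1.05 (1.01 to 1.09), and 0.82 and 0.89 at equal depth. *Gzmd* (chr14:56129556-56132603) measured 379 CPM against 175 CPM in control and 54.0 CPM against 28.5 CPM in CD8-IFNγRKO TILs, with log2 ratios of 1.11 and 0.90, and 1.00 and 0.52 at equal depth. The rule cells were thus higher within each library, but the CD8-IFNγRKO rule cells had less *Gzmd* than the other cells of control. *Gzme* (chr14:56117619-56120625) had log2 ratios of 0.95 and 0.89, and 0.92 and 0.46 at equal depth. *Gzmc* (chr14:56231397-56241647) had the higher level in CD8-IFNγRKO, with 276 CPM against 134 CPM in control and 778 CPM against 400.1 CPM in CD8-IFNγRKO TILs, and its ratios went from 1.04 and 0.96 to 0.50 and 0.41 at equal depth. These granzymes are close relatives in sequence, and how the counting divided reads among them is uncertain.

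*Prf1*, encoding perforin (chr10:61297751-61304684), measured 1395 CPM against 904 CPM in control and 1257 CPM against 732 CPM in CD8-IFNγRKO TILs, with log2 ratios of 0.63 and 0.78, and 0.62 and 0.69 at equal depth. Thinned to 6000 UMIs, the ratios were 0.54 and 0.62, below the limit in control. *Gzmb* (chr14:56258836-56262334), the most abundant granzyme transcript, measured 3893 CPM against 2769 CPM in control and 5973 CPM against 3724 CPM in CD8-IFNγRKO TILs, with ratios of 0.49 and 0.68 that passed the limit in CD8-IFNγRKO alone. The CD8-IFNγRKO ratio fell below the limit at equal depth, with 0.54, and after thinning to 6000 UMIs, with 0.42. *Serpinb9b*, which encodes an inhibitor of the serpin family related to the granzyme B inhibitor, had ratios of 0.74 and 1.29, and 0.68 and 0.74 at equal depth. After thinning to 6000 UMIs it had 0.41 and 0.92, below the limit in control. *Gzmk*, a granzyme of less differentiated cells, was not higher, with 123 CPM against 141 CPM in control and 218 CPM against 226 CPM in CD8-IFNγRKO TILs. *Gzma* was lower, with 27.0 CPM against 64.2 CPM in control and 152 CPM against 198 CPM in CD8-IFNγRKO TILs, past the limit in control alone, with log2 ratios of -1.22 and -0.38. At equal depth these were -0.52 and 0.00, so that neither passed. In the list of killing genes, 5 of 15 measured genes passed upward and 0 downward, against 0.446% upward over all genes. Of these, *Gzmd* and *Gzme* met the minimum of 50 CPM in CD8-IFNγRKO through rule cells alone, so nothing is read from the tally. The list had median log2 ratios of 0.14 and 0.38. At equal depth 2 passed upward, with medians of 0.17 and 0.27. Per cell, thinned to 3000 UMIs, no UMI of granzymes C to G was found in 52.6% of control rule cells and 70.2% of the others, and in 62.0% against 80.7% in CD8-IFNγRKO, with 20 and 5 rule cells and 1199 and 1259 other cells too shallow to enter. The higher pooled level therefore went with more cells that had any of these transcripts.

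Among secreted factors, *Ccl3*, which encodes a chemokine, measured 633 CPM against 370.2 CPM in control and 536 CPM against 328 CPM in CD8-IFNγRKO TILs, with log2 ratios of 0.77 and 0.71, and 0.47 and 0.65 at equal depth. *Spp1*, encoding osteopontin, measured 459 CPM against 284 CPM in control and 160.4 CPM against 79.4 CPM in CD8-IFNγRKO TILs, with 0.49 and 0.99 at equal depth. *Ifng* itself had 511 CPM against 433 CPM in control and 453 CPM against 395 CPM in CD8-IFNγRKO TILs, and *Tnf* 59.4 CPM against 77.4 CPM in control and 39.0 CPM against 49.1 CPM in CD8-IFNγRKO TILs, neither past the limit. *Xcl1*, a chemokine that draws cross-presenting dendritic cells, was lower in rule cells, with 31.1 CPM against 66.4 CPM in control and 74.9 CPM against 229.8 CPM in CD8-IFNγRKO TILs, and stayed so at equal depth, with -2.16 and -2.03. In rule cells, 10 cells held 46.4% and 31.8% of its UMIs, and without cells that had 3 or more UMIs of the macrophage and dendritic cell lists the gene no longer met the minimum of 50 CPM in control TILs. Of 7 cytokine and chemokine genes measured, 2 were higher and 1 lower, with median ratios of 0.24 and 0.20. At equal depth 0 were higher and 1 lower, with medians of 0.43 and 0.42.

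All 3 metallothionein genes measured, which encode small zinc- and copper-binding proteins, were higher in rule cells, except *Mt2* in control, at -0.09, after thinning to 6000 UMIs. *Mt1* measured 979 CPM against 629 CPM in control and 1290.1 CPM against 750.2 CPM in CD8-IFNγRKO TILs, with ratios of 0.64 and 0.78, *Mt2* had 0.60 and 0.79, and *Mt3* 0.68 and 0.65. At equal depth the 3 had median ratios of 0.31 and 0.45, below the limit. *Il1r2*, the decoy receptor for IL-1, was the last of the 12, with 172 CPM against 111 CPM in control and 98.3 CPM against 50.3 CPM in CD8-IFNγRKO TILs, and had 0.46 and 0.74 at equal depth. *Fcer1g*, an adaptor of activating receptors, passed in both libraries at equal depth only, with 85.9 CPM against 49.7 CPM in control and 59.2 CPM against 39.8 CPM in CD8-IFNγRKO TILs and depth-weighted ratios of 0.66 and 0.68.

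The lower side held 9 genes, among them *Ccr7*, *Emb* and *Xcl1*. *Ccr7*, which guides T cells to lymph nodes, measured 37.7 CPM against 104 CPM in control and 24.4 CPM against 101.3 CPM in CD8-IFNγRKO TILs, with log2 ratios of -1.44 (-1.54 to -1.34) and -2.01 (-2.10 to -1.92), and -1.62 and -1.73 at equal depth. In *Tcf7*+ *Pdcd1*+ cells it stood at 334 and 259 CPM, the highest of the 3 groups. Only 9.31% and 9.47% of rule cells had any *Ccr7* UMI, and 10 cells held 34.6% and 30.0% of them. *Emb*, an adhesion molecule of the basigin family, measured 52.9 CPM against 123 CPM in control and 37.1 CPM against 100.5 CPM in CD8-IFNγRKO TILs and stayed lower at equal depth, with -0.84 and -1.08. These 2 genes and *Xcl1* were the lower genes that held at equal depth. Of 20 stem and naive genes, 5 were measured. All 5 had ratios below 0 in both libraries, with *Il7r* at -0.44 and -0.52 and *Klf2* at -0.52 and -0.84, but *Ccr7* alone passed. *Ccr7*, like *Socs3* and *Rtp4* among the lower genes, met the minimum of 50 CPM in both libraries only through the other cells. *Emb* did so in CD8-IFNγRKO, and *Xcl1* and *Evl* did so in control. Nothing is therefore read from the tally of stem and naive genes or from the number of lower genes. The list's median moved from -0.44 and -0.81 to -0.11 and -0.08 at equal depth.

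The remaining lower genes moved with depth. *Socs3*, a feedback inhibitor of cytokine signaling, had ratios of -0.80 and -1.21, and -0.32 and -0.49 at equal depth. *Fos*, an immediate early gene, measured 128 CPM against 206 CPM in control and 139 CPM against 285 CPM in CD8-IFNγRKO TILs, and its ratios went from -0.68 and -1.03 to -0.08 and -0.33. *Zfp36l2*, which encodes a protein that destabilizes mRNA, went from -0.83 and -0.77 to -0.30 and -0.28, and *Rtp4*, an interferon-induced gene, from -0.75 and -0.81 to -0.20 and -0.09. *Gramd3* went from -0.78 and -0.84 to -0.26 and -0.34, and *Evl*, a regulator of actin, from -0.63 and -0.62 to -0.37 and -0.32. *Btg1*, an antiproliferative gene that passed in CD8-IFNγRKO alone, had -0.57 and -0.66, and 0.03 and 0.04 at equal depth. All 11 immediate early genes measured had ratios below 0 in both libraries, with medians of -0.36 and -0.44 that became -0.05 and -0.13 at equal depth, where some of the genes lay above 0, as *Egr1* with 0.36 and 0.08.

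**Figure D3:**
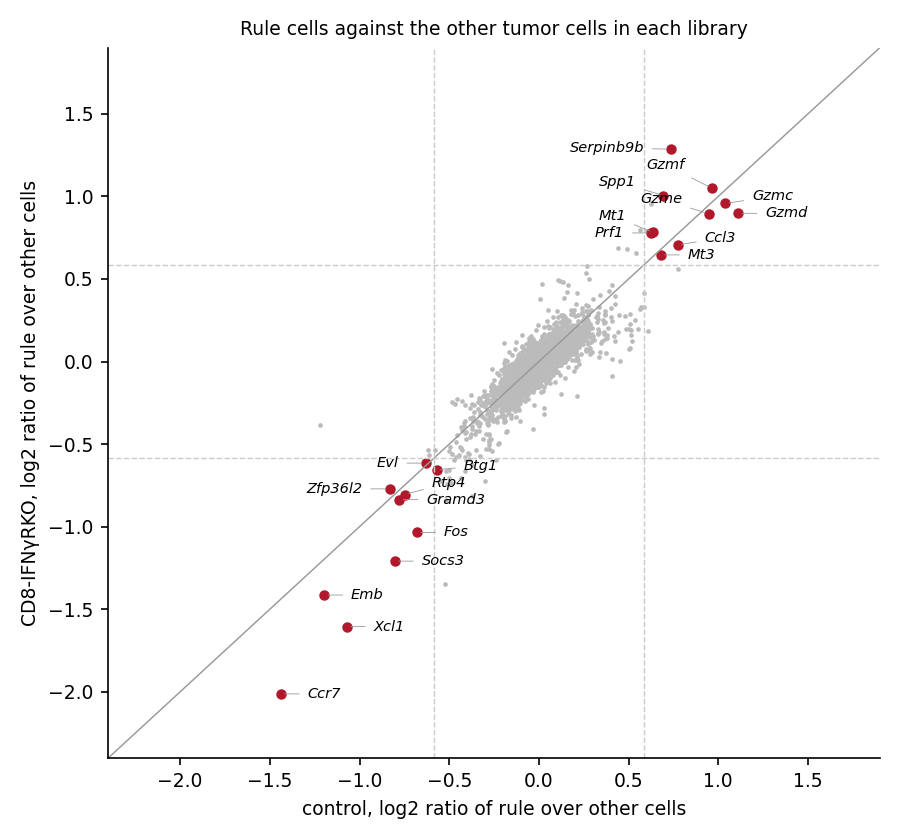
Log2 ratio of pooled CPM in rule over other tumor cells, control on the x axis and CD8-IFNγRKO on the y axis, 1 point per gene (2693), named genes in red, dashed lines at 1.5-fold. *Gzmc*, *Gzmd*, *Gzme* and *Gzmf* lie at the upper right and *Ccr7*, *Xcl1* and *Emb* at the lower left, while *Gzma* is the lone grey point at the left, lower in control only.

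Groups of genes that describe the state of a T cell were also counted between rule and other cells. Over all genes 0.446% were higher and 0.334% lower, so counts near 0 in short lists are not read as a result. Of 8 inhibitory receptor genes and 12 exhaustion transcription factor genes measured, 0 passed in either direction, with medians of -0.02 and -0.05 for the receptors and -0.04 and -0.03 for the factors. At equal depth the receptors' medians were 0.17 and 0.18. Of the 89 genes of the study's own exhaustion list, 77 were in the files and 50 were measured, with 1 higher, 0 lower and medians of 0.02 and 0.05. IFNγ response genes had medians of -0.09 and -0.20, with 1 of 26 lower (*Socs3*), and antiviral interferon genes -0.26 and -0.30, with 1 of 9 lower (*Rtp4*). At equal depth the medians were 0.08 and 0.02 for the former and 0.04 and 0.04 for the latter. Glycolysis genes had medians of 0.12 and 0.27 and heat shock genes -0.04 and -0.12, with 0 of 18 and 0 of 11 past the limit. At equal depth the medians were 0.06 and 0.12 for glycolysis, -0.12 and -0.12 for heat shock and 0.05 and 0.11 for the exhaustion factors. Beside these values, the median over all genes was 0.02 as sequenced, and -0.007 and -0.003 at equal depth.

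Cell cycle genes changed their direction with depth. As sequenced, 20 of 21 S phase and 23 of 25 G2/M genes had ratios above 0 in both libraries, with medians of 0.24 and 0.11 for S phase and 0.38 and 0.19 for G2/M. *Mki67*, a marker of cycling cells, measured 149.8 CPM against 98.1 CPM in control and 195 CPM against 171 CPM in CD8-IFNγRKO TILs, and *Top2a*, a topoisomerase of dividing cells, 184 CPM against 129 CPM in control and 256 CPM against 223 CPM in CD8-IFNγRKO TILs. At equal depth the medians were -0.25 and -0.16 for S phase and -0.20 and -0.11 for G2/M, and *Mki67* had -0.06 and -0.14. None of these genes passed the limit in both libraries under either way of counting. No higher or lower cycling of the rule cells can be read from these values.

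Genotypes were compared within the rule cells next. A gene entered with at least 50 CPM in either genotype, so that some, as *Gzma* with 27.0 CPM in control, entered through 1 genotype alone. The tallies of lists below can hold such genes. Of 2976 genes, 126 (4.23%) were more than 1.5-fold higher and 132 (4.44%) lower in CD8-IFNγRKO rule cells, and in the other cells 165 (5.5%) and 121 (4.04%) of 2998. The median log2 ratio was 0.03 in rule cells, with an interquartile range of 0.40, and 0.02 with 0.38 in the others. Differences between 3 pooled mice per genotype, between libraries and between the genotypes cannot be told apart in these ratios. Values below are log2 ratios of CD8-IFNγRKO over control rule cells, with that in the other cells after them where it is given.

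The granzymes took opposite directions. *Gzma* (chr13:113093824-113100981), encoding the tryptase granzyme A, stood at 27.0 CPM in control and 152 CPM in CD8-IFNγRKO rule cells, a ratio of 2.45 (2.35 to 2.55), with 1.61 in the other cells. In control, 10 cells held 57.5% of its UMIs in rule cells. *Gzmc* was also higher, with 1.49 and 1.57, and *Gzmb* with 0.62 and 0.43. *Gzmd* stood at 379 CPM in control and 54.0 CPM in CD8-IFNγRKO rule cells, a ratio of -2.79 (-2.85 to -2.73), with 38.8% of the CD8-IFNγRKO UMIs in 10 cells, and *Gzme* had -2.85 (-2.91 to -2.80). In the other cells *Gzmd* had -2.57 and *Gzme* -2.80. *Gzmf* had -1.25 and -1.33, and *Prf1* -0.15 and -0.30. Neighbouring genes of 1 cluster thus lay on both sides, with 4 of 15 killing genes higher and 4 lower, at a median of -0.15.

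Secreted factors were mostly lower in CD8-IFNγRKO rule cells. *Areg*, encoding the EGF receptor ligand amphiregulin, stood at 141 CPM in control and 16.8 CPM in CD8-IFNγRKO rule cells, with -2.99 (-3.10 to -2.89), and -3.21 in the other cells, and 10 cells held 41.4% of the UMIs of the CD8-IFNγRKO rule cells. *Ccl5*, a chemokine of effector T cells, stood at 8102 CPM in control and 2381 CPM in CD8-IFNγRKO, with -1.77 and -1.39. *Csf1*, the macrophage growth factor, stood at 234 CPM in control and 66.6 CPM in CD8-IFNγRKO, with -1.80 and -2.00. *Spp1* had -1.51 and -1.82, whereas *Xcl1* was higher, with 1.24 and 1.78. Of 10 cytokine and chemokine genes, 6 were lower and 1 higher, with a median of -0.85 in rule and -0.81 in other cells. *Serpine2*, a secreted protease inhibitor, stood at 503 CPM in control and 121 CPM in CD8-IFNγRKO, with -2.04 and -2.27.

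Inhibitory receptors were lower in CD8-IFNγRKO rule cells as a group. All 9 measured had ratios below 0, except *Lilrb4a*, at 0.05, at equal depth, and 5 passed the limit, with a median of -0.59, and -0.53 in the other cells. At equal depth the median in rule cells was -0.52, within the limit. *Lag3* had -0.81 and -0.81, *Tigit* -0.72 and -0.63, and *Cd38* -0.71 and -0.55. The receptors of the rule stood at 840.1 CPM in control and 644 CPM in CD8-IFNγRKO for *Pdcd1* and 383 CPM in control and 283 CPM in CD8-IFNγRKO for *Havcr2*, given as a description. All 14 exhaustion transcription factor genes measured had ratios below 0, except *Tox*, at 0.11, after thinning, and 5 passed the limit, with a median of -0.34, and -0.33 in the other cells. Among them were *Nr4a1* with -1.23 and *Nr4a2* with -0.99, both induced by TCR signals, while *Tox* had -0.09 without it. The study's exhaustion list had 8 higher and 5 lower of 52, with a median of 0.00.

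Among IFNγ response genes, 3 of 26 were lower and 0 higher, with 9 above and 17 below 0. The median was -0.22 in rule and -0.17 in other cells, and -0.13 in rule cells at equal depth. *Ifitm1*, an interferon-induced membrane protein gene, had -2.25 (-2.33 to -2.17) in rule and -2.03 in other cells. *Irf1*, an interferon-induced transcription factor gene, had -0.89 in rule cells. *B2m*, encoding the light chain of MHC class I, had -0.26. Antiviral genes had a median of 0.20, and 0.31 at equal depth, with 6 of 8 above 0 and 1 higher, *Bst2* with 0.73. *Cd74*, the invariant chain of MHC class II, had -2.41 in rule and -0.96 in other cells, but 10 cells held 1732 of its 2136 UMIs (81.1%) in control rule cells, and it missed the minimum of 50 CPM once cells with 3 or more macrophage and dendritic cell UMIs were left out.

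Higher genes in CD8-IFNγRKO rule cells included heat shock and cell cycle genes. *Hspa1a*, an inducible chaperone gene, stood at 173 CPM in control and 558 CPM in CD8-IFNγRKO, with 1.68 and 2.04, and 6 of 11 heat shock genes passed. *Fdps*, an enzyme of the mevalonate pathway, stood at 26.9 CPM in control and 85.9 CPM in CD8-IFNγRKO, with 1.64 and 1.35. *Idi1*, *Tmem97* and *Cyp51*, of the same pathway or its regulation, had 1.44, 1.34 and 1.26, and 1.27, 1.28 and 1.01 in the other cells. No list of this pathway was counted. All 27 S phase genes had ratios above 0 and 17 passed, with a median of 0.67, and 5 of 30 G2/M genes passed, with 0.41. Over all genes 4.23% passed upward. Genes could enter these lists through CD8-IFNγRKO alone, so nothing is read from the tallies. At equal depth the medians were 0.51 and 0.28, and in the other cells 0.80 and 0.66. Glycolysis genes had a median of 0.51, with 7 of 19 past the limit, among them *Tpi1* with 0.72 and *Bnip3* with 0.82. With control rule cells weighted to the depths of the CD8-IFNγRKO rule cells, the number of higher genes went from 126 to 78.

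Genotype ratios of rule cells were also set beside those of the other cells, gene by gene, for genes with at least 50 CPM in either genotype both in rule and in other cells. Differences between the ratios, rule minus other, were highest for *Gzma* at 0.84, *Serpinb9b* at 0.55, *Anxa1* at 0.48, *Ifitm2* at 0.45 and *Slc2a3*, a glucose transporter gene, at 0.39. The lowest were those of *Xcl1* at -0.53, *Gm4316* at -0.50, *Fbxo5* at -0.48, *Hist1h2ai* at -0.47 and *Stmn1* at -0.45, of which *Fbxo5*, *Hist1h2ai* and *Stmn1* belong to dividing cells. *Cd74*, at -1.45, and *Ccr7*, at -0.57, lay lower but missed that minimum, the former in other and the latter in rule cells. Depth was not matched in these differences, and the ratio of *Stmn1* in rule cells went from 0.15 to -0.01 at equal depth and 0.46 after thinning, and that of *Fbxo5* from 0.28 to 0.12 and 0.57. With 1 library per genotype these differences were not tested.

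**Figure D4:**
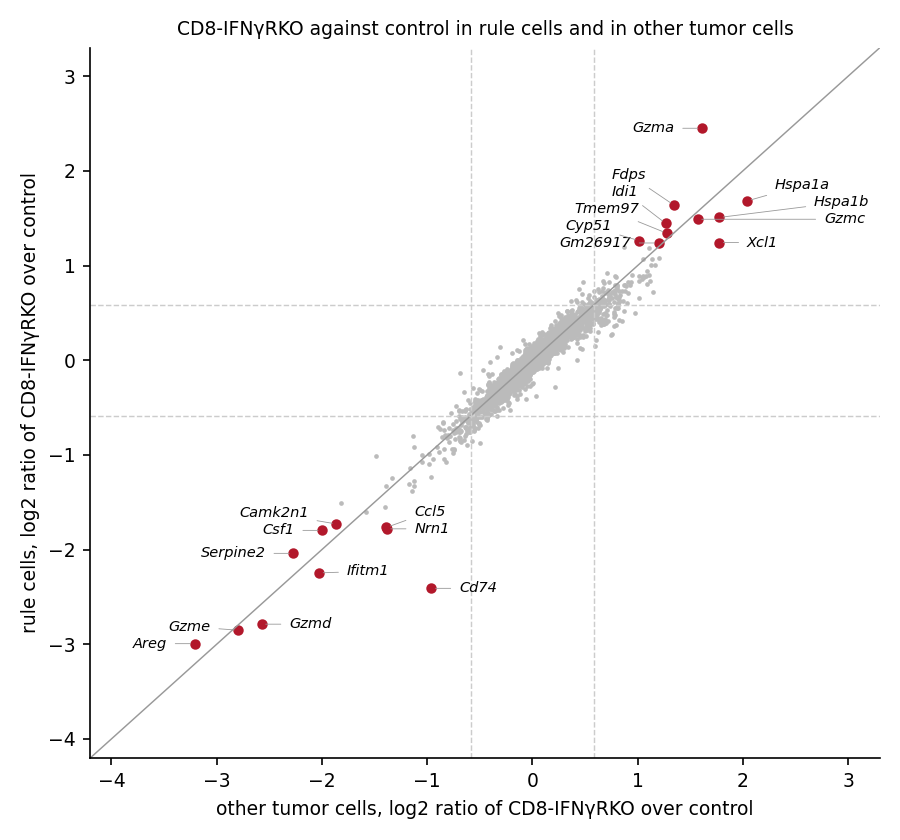
Log2 ratio of pooled CPM of CD8-IFNγRKO over control in the other tumor cells (x axis) and in rule cells (y axis), 1 point per gene, named genes in red, dashed lines at 1.5-fold. Most genes lie along the diagonal, with *Areg*, *Gzme* and *Gzmd* lowest in both groups and *Gzma* above and *Cd74* below the line.

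The rule did not use the TCR. Cells were placed in 1 clone when V genes, J genes and CDR3 nucleotides were identical in both the alpha and the beta chain with most UMIs, and 1333 (57.2%) control and 2154 (73.9%) CD8-IFNγRKO rule cells had both chains. Rule cells fell into 55 and 43 clones, of which 47 and 39 also held other cells (85.5% and 90.7%). The 10 clones with most rule cells held 87.0% (85.1 to 88.8) and 80.2% (78.4 to 81.8) of the rule cells with a clone, and the 10 with most other cells 73.9% and 68.2% of the others. In draws of 500 cells there were 38.0 clones among rule and 82.2 among other cells in control, and 31.9 and 89.4 in CD8-IFNγRKO. Cells with a partner of the same clone made up 99.4% and 99.9% of rule cells and 94.1% and 90.5% of the others. No clone was found in both tumor libraries.

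Clones that held most rule cells differed between libraries, and their CDR3 nucleotides, read from the deposited contigs, are shown because they held most of the rule cells that had a beta chain. Bases in capitals are those between the codons at either end of the CDR3, which are in lower case.
control clone 1, TRBV12-1 and TRBJ2-4, beta: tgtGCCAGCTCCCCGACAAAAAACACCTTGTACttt
control clone 1, TRAV12-3 and TRAJ42, alpha: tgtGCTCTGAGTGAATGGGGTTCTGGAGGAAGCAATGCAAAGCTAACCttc
control clone 2, TRBV14 and TRBJ1-1, beta: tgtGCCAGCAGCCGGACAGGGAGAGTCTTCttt
control clone 2, TRAV5-1 and TRAJ16, alpha: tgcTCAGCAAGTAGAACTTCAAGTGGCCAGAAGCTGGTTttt
control clone 3, TRBV15 and TRBJ2-1, beta: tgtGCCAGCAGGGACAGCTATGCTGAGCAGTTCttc
control clone 3, TRAV13D-2 and TRAJ39, alpha: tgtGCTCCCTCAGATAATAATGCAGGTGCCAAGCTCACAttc
CD8-IFNγRKO clone 1, TRBV14 and TRBJ1-6, beta: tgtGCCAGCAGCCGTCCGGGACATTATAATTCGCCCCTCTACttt
CD8-IFNγRKO clone 1, TRAV7D-2 and TRAJ21, alpha: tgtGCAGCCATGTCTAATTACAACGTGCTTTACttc
CD8-IFNγRKO clone 2, TRBV13-3 and TRBJ1-1, beta: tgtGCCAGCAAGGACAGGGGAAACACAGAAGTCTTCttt
CD8-IFNγRKO clone 2, TRAV12D-3 and TRAJ39, alpha: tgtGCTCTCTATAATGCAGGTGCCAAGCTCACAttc
CD8-IFNγRKO clone 3, TRBJ2-5, beta: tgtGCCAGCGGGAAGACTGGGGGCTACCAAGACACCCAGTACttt
CD8-IFNγRKO clone 3, TRAV8D-2 and TRAJ7, first alpha: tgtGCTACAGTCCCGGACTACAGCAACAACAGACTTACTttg
CD8-IFNγRKO clone 3, TRAV7D-5 and TRAJ7, second alpha: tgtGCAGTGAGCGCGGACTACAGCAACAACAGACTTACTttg

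In these lines clones are numbered by rule cells with that beta chain. The 3 control beta chains were found in 438, 390 and 173 rule cells, which were 37.2% (34.4 to 40.0), 36.7% (33.8 to 39.6) and 30.3% (26.6 to 34.2) of all their cells. The 3 of CD8-IFNγRKO were found in 685, 554 and 243 rule cells, 45.1% (42.5 to 47.6), 42.1% (39.4 to 44.8) and 34.0% (30.6 to 37.6) of their cells. Each of these clones thus held rule cells and other cells side by side, with the other cells in the majority. Of 714 cells with the third CD8-IFNγRKO beta chain, 524 had 2 or more alpha chains, and by the alpha chain with most UMIs 315 and 255 cells fell into a pair of clones. Its contigs were assigned to TRBV12-2+TRBV13-2. The sixth beta chain of CD8-IFNγRKO, with 137 cells, had the highest share of the 9 chains with at least 50 rule cells, 55.5% (46.7 to 64.0), and the seventh, with 199 cells, the lowest, 31.2% (24.8 to 38.1).

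Rule cells were scarce in small clones. In control, 4.37% of cells with a clone of their own met the rule, 13.7% in clones of 2 to 5 cells, 19.4% in 6 to 20, 24.3% in 21 to 100 and 35.7% in clones over 100. In CD8-IFNγRKO the shares were 0.824%, 11.9%, 20.6%, 33.8% and 40.2%. Cells of small clones were also shallower, and cells of the same depth in the whole library would have given 16.2% and 9.78% in the smallest class and 33.1% and 37.9% in the largest. The measured shares therefore spanned a wider range than those set by depth, below them in the smallest class and above them in the largest. Cells without both chains had shares of 35.4% and 28.2%.

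**Figure D5:**
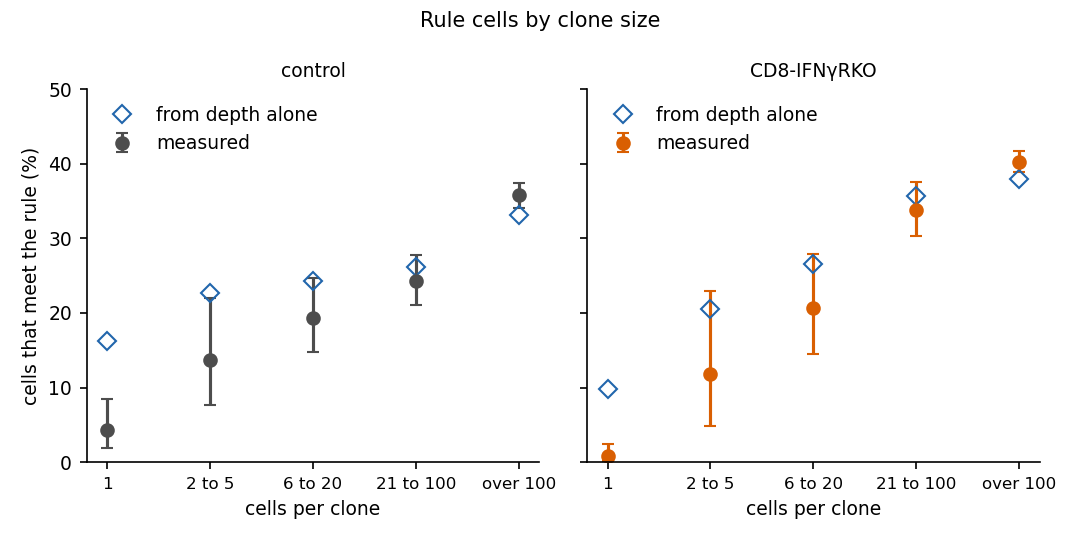
Share of cells that met the rule (y axis, percent) by number of cells in the clone (x axis), control left and CD8-IFNγRKO right, filled points with exact 95% binomial intervals, and open diamonds for the share at the same depths in the whole library. Measured shares run from 4.37% to 35.7% in control and from 0.824% to 40.2% in CD8-IFNγRKO, more steeply than the diamonds.

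Clones of 1 library differed in what their rule cells expressed. Rule cells of the 3 control and 9 CD8-IFNγRKO beta chains with at least 50 rule cells were compared, as members of 1 library each and not as replicates. *Ifngr1* lay between 602 and 729 CPM in the control clones and between 182 and 297 CPM in the CD8-IFNγRKO clones. *Gzmd* lay between 209 and 615 CPM against 0 and 102 CPM, *Gzma* between 1.62 and 14.3 against 36.3 and 425 CPM, and *Lag3* between 920 and 1013 against 459 and 788 CPM. These ranges did not overlap, nor did those of *Ccl5*, *Areg*, *Csf1*, *Fdps* and *Hspa1a*. Of all 2976 genes compared between genotypes, 665 (22.3%) had ranges without overlap, 304 (10.2%) lower and 361 (12.1%) higher in CD8-IFNγRKO. The 16 of 27 genes without overlap among those looked at here came from a choice that held many of the largest genotype ratios, and nothing is read from that count. Overlap was seen for *Gzmb*, *Gzmc*, *Prf1*, *Tigit*, *Tox* and *Mki67*. *Spp1* varied widely, from 167 to 662 CPM among control and from 30.1 to 1754 CPM among CD8-IFNγRKO clones. Since each library's clones come from the same 3 mice, non-overlap here does not separate genotype from library.

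Markers of other cell types were low in the rule cells. Summed over the macrophage and monocyte list they measured 24.4 CPM against 23.9 CPM in the other cells of control and 17.5 against 16.9 CPM in CD8-IFNγRKO, with *Cd68*, also transcribed in T cells, the most abundant. The melanoma list summed to 3.56 and 3.10 CPM and the red blood cell list to 0.0641 and 0.104 CPM in rule cells. The dendritic cell list was higher in control rule cells, 137 against 61.3 CPM, and 33.7 against 45.9 CPM in CD8-IFNγRKO, with *Cd74* on top. The NK cell list summed to 92.4 against 53.7 CPM and 60.7 against 43.1 CPM, of which *Fcer1g* gave 85.9 and 49.7, and 59.2 and 39.8 CPM. B cell genes were lower in rule cells, with 7.05 against 16.7 and 33.3 against 54.1 CPM, led by *Igkc*. The CD4 and regulatory T cell list summed to 57.0 against 52.5 and 75.5 against 60.8 CPM, led by *Il2ra*, and the stroma and endothelium list to 3.62 against 5.55 and 2.44 against 6.54 CPM. *Pax5* of the B cell list, *Klra8* of the NK cell list, *Siglech* of the dendritic cell list and *Col3a1* and *Cdh5* of the stroma list were at 0 in the rule cells of both libraries. Cells with a second beta chain, a sign of a pair of cells under 1 barcode or of a dual receptor, made up 1.16% of rule and 1.36% of other cells in control, and 1.85% and 2.13% in CD8-IFNγRKO. Without the cells that had 2 beta chains, the share of rule cells went from 32.80% to 32.85% in control and from 33.75% to 33.81% in CD8-IFNγRKO, and the numbers of higher and lower genes stayed at 12 and 9. Without the cells that had 3 or more macrophage and dendritic cell UMIs, the shares were 32.1% and 33.0% and the numbers of genes 13 and 11. The part of the other cell types in the results was not tested.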

How the data were processed

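Single-cell 5′ libraries of CD8 T cells from tumors and LN, each from a pool of 3 mice, and TCR libraries of both tumors were used. The authors mapped reads with Cell Ranger 6.0.0 to mm10 and deposited, for each barcode, raw UMI counts of 32285 genes, and filtered TCR contigs with counts of reads and UMIs. Values were computed in Python 3.11.15 with pandas 2.3.3, numpy 2.4.6 and scipy 1.17.1, and plotted with matplotlib 3.10.9. The study's further filter on large gene content was not applied. UMIs were summed per group and scaled to CPM, log2 ratios had 1 CPM added, and intervals were exact (Clopper-Pearson for shares and conditional binomial for ratios). Tests were not run: each genotype was 1 library, and rule and other cells were compared by their ratios within each tumor library. Depth weighting matched cells in 30 classes of UMI count. Sums and intervals were tested on simulated data. Named genes were those of the fixed lists, the 10 highest and 10 lowest ratios per comparison and the 5 highest and 5 lowest differences between ratios, leaving out TCR segments, mitochondrial and ribosomal protein genes and the 7 genes of the rule. *Ifngr1*, *Ifngr2* and *Il1r2* were named beyond it. Cells, lists and rules were chosen with earlier results of these data known. Gene coordinates are those of RefSeq on GRCm38.p6, the files' build. Alternatives changed the UMI limits, depth, doublets, other cell types, the total, the added CPM and the minimum CPM.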

Additional observations from a re-analysis of the deposited data

How the results depend on the processing

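The share of rule cells depended most on the UMI limits and on depth. With at least 3 UMIs of *Pdcd1*, 3 of *Havcr2* and 2 of *Entpd1* it was 15.8% in control and 16.9% in CD8-IFNγRKO, with at least 1 of each 41.0% and 44.1%, after thinning to 6000 UMIs 25.9% and 15.7%, after thinning to 3000 UMIs 5.83% and 2.52%, and without the cells of most UMIs 30.1% and 31.2%. The 12 genes higher in rule cells became 6 under the stricter limits, 7 under the looser ones, 4 after thinning to 6000 UMIs, 4 at equal depth and 5 with a minimum of 200 CPM. Of the 12, *Gzmf*, *Prf1* and *Serpinb9b* held at equal depth and *Gzmf*, *Gzmd* and *Gzme* after thinning, so that *Gzmf* alone held under both. The 9 lower genes became 3 after thinning, 3 at equal depth, 27 with a minimum of 20 CPM and 2 with 200 CPM. Of the genotype counts in rule cells, the 126 higher genes became 78 at equal depth, 258 with a minimum of 20 CPM and 27 with 200 CPM, and the 132 lower ones 222 and 42 under these minimums, which change how many genes are compared. The share of CD8-IFNγRKO rule cells in the 10 clones with most rule cells, 80.2%, was 85.2% for clones by beta chain alone and 83.8% after thinning. Some ratios of rule over other cells changed sign: in control, *Mki67* at -0.403 after thinning and -0.0642 at equal depth, *Ube2c* at -0.713 and -0.150, *Mt2* at -0.0917 after thinning, and *Pdcd1* at -0.0466 in held-out UMIs; in CD8-IFNγRKO, *Btg1* at 0.0941 after thinning and 0.0376 at equal depth, and *Gbp2* at 0.0605 after thinning. The cause was not tested. Leaving out cells with 2 beta chains or with macrophage or dendritic cell UMIs, adding 10 CPM and leaving gene classes out of the total moved no share of rule cells and no count of genes by more than 1.5 times. No paired analysis of the genotypes was possible because each genotype was 1 library. Rule and other cells came from the same libraries and were compared by their ratio within each, without a test. Depth limits the rule itself: a cell of few UMIs can miss it by sampling alone, and a cell with 0 UMIs of *Tcf7* need not lack the transcript.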
